A study of Mus musculus with 3 samples.

Results

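The EGF receptor family and its ligands were followed through the colon of mice with and without colitis. The set held 10 genes, namely 7 ligands and 3 receptors, out of 19938 genes with a named probe set on the array, and 9 of the 10 had a value here. Areg, which encodes the ligand amphiregulin, was not analysed here. The genes were chosen by name with earlier results of these arrays known, among them the values of Ereg, so their levels are given as a description without any test.

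Colonic mRNA was measured on 3 arrays of distal colon from male BALB/c littermates aged 10 to 12 weeks, taken on day 7. The IL-4Rα-/- colitis array held pooled RNA of 6 mice with a germline null allele of Il4ra (Il4ra tm1Sz) in every cell, which drank 3% DSS (dextran sulfate sodium, a polymer that injures the colonic epithelium). The WT colitis array held RNA of 3 WT mice given the same DSS, and the WT normal array held RNA of 4 WT mice given plain water. With 1 array per group, mouse-to-mouse spread within a pool was not measured, no difference has an error or a p-value, and an untreated IL-4Rα-/- colon was not analysed here.

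The disease activity index of the pooled mice ranged from 0 to 3 in IL-4Rα-/- colitis and from 3 to 4 in WT colitis, and it was 0 in WT normal, so genotype and severity of colitis cannot be told apart between the colitis arrays. The knocked-out gene, Il4ra, gave log2 signals of 4.76 in IL-4Rα-/- colitis, 6.63 in WT colitis and 5.69 in WT normal. It was lowest on the knockout array, and whether its probes cover the disrupted exons was not known here. The genes that mark colonic epithelium were bright, with a mean log2 signal over 10 genes of 9.88 in IL-4Rα-/- colitis, 9.84 in WT colitis and 9.96 in WT normal. Of all genes, 45.8% carried the same value, at 2 decimals, on all 3 arrays, and 20.0% carried the same value in IL-4Rα-/- colitis and WT normal but another in WT colitis. An equal value on these arrays is a deposited value and does not show that transcripts were equally abundant.

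EGF family ligands are made as membrane-anchored precursors that metalloproteases cut loose. They bind EGFR and its relatives on neighbouring cells, the receptors pair and phosphorylate each other, and the signal runs through RAS, ERK and PI3K. In the gut epithelium this signalling is known for crypt cell proliferation and for closing wounds after injury.

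Epgn, Ereg, Areg and Btc lie next to each other on mouse chromosome 5, in that order among protein-coding genes of the RefSeq annotation of GRCm38.p6. Promoter sequence, from 250 bases before to 50 bases after the transcript start, was found in the RefSeq table of that build for 7 of the 10 genes, and Ereg, Hbegf and Erbb3 were not among them. The promoters of Epgn, a ligand of the cluster, and of Egfr, the receptor it binds, are shown because both genes had their highest signal in WT colitis and equal signals on the other arrays, although Epgn was near background on all 3. Btc had the same order of values, and its promoter is left out because no motif searched was found in it.
Epgn, chr5:91027267-91027566, plus strand: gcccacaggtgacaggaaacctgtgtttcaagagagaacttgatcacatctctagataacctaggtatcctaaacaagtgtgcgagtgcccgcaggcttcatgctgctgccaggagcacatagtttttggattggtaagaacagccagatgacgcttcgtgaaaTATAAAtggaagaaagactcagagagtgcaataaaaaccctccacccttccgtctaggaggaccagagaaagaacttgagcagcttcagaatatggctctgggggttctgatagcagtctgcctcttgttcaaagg
Egfr, chr11:16751953-16752252, plus strand: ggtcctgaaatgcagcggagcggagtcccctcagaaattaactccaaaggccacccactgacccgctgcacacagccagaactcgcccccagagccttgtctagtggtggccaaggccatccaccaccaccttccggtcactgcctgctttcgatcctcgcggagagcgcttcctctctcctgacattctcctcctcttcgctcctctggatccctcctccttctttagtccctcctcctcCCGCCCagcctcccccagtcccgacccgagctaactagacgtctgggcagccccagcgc
Capitals mark matches, on either strand, to the motifs searched, which were the TATA box TATAAA, the GC box GGGCGG, the AP-1 site TGANTCA, the cAMP response element TGACGTCA, the STAT site TTCNNNGAA and the E-box CACGTG. The matches shown did not overlap. The Epgn promoter held 1 TATA box, a motif present in 13.6% of the 32851 promoters of the table. The Egfr promoter held 1 GC box, present in 35.7% of them, and 62.3% of its bases were G or C, against 47.3% in Epgn and a median of 52.7% over the table. Tgfa held 2 GC boxes. Areg, whose expression was not analysed, held 1 cAMP response element, present in 1.79% of promoters, 1 TATA box and 2 GC boxes, and the promoters of Btc, Egf and Erbb2 held none of the 6 motifs. These matches describe letters in a window and not binding.

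Ereg, which encodes epiregulin, a ligand of EGFR and ERBB4, had a log2 signal of 5.78 in IL-4Rα-/- colitis, 8.70 in WT colitis and 6.62 in WT normal. It was high on the WT colitis array and lower on the other arrays, with its lowest value in IL-4Rα-/- colitis. Its log2 difference between IL-4Rα-/- colitis and WT colitis was -2.92, a 7.57-fold lower signal, and 6 of 19938 genes had a lower difference. Between WT colitis and WT normal it was 2.08, a 4.23-fold higher signal, and 32 genes had a higher difference. Relative to WT normal, the IL-4Rα-/- colitis signal was lower by a log2 difference of -0.84 (1.79-fold), a comparison in which genotype and DSS both differ. Because this is RNA of whole tissue, fewer cells of a type and less RNA per cell cannot be told apart.

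Hbegf, which encodes heparin-binding EGF-like growth factor, had another profile. Its log2 signal was 5.99 in IL-4Rα-/- colitis, 6.04 in WT colitis and 7.94 in WT normal. It was thus low on both colitis arrays and high on the untreated one. The difference between IL-4Rα-/- colitis and WT colitis was -0.05, while WT colitis was 3.73-fold below WT normal (log2 difference of -1.90) and IL-4Rα-/- colitis 3.86-fold below it (-1.95). Of all genes, 31 had a lower difference than Hbegf between WT colitis and WT normal and 33 between IL-4Rα-/- colitis and WT normal. Both of these differences rest on the single WT normal array.

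The remaining ligands differed little. Tgfa, which encodes transforming growth factor α, an EGFR ligand of the gut epithelium, was listed at 6.58 on all 3 arrays. Egf, the founding ligand, was listed at 3.75 on all 3. Btc, betacellulin, had 4.48 in IL-4Rα-/- colitis, 4.56 in WT colitis and 4.48 in WT normal. Epgn, epigen, had 2.73 in IL-4Rα-/- colitis, 3.17 in WT colitis and 2.73 in WT normal. Egf and Epgn stayed under a log2 signal of 4, which is taken here as near background, since 1205 probe sets for olfactory and vomeronasal receptors had a median of 2.44 and a 95th percentile of 3.50. Differences of these dim genes say little about their transcripts.

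The receptors varied less than Ereg and Hbegf. Egfr, the receptor of all these ligands, had 6.24 in IL-4Rα-/- colitis, 6.52 in WT colitis and 6.24 in WT normal, a 1.21-fold difference. Erbb2, a receptor with no known ligand of its own that pairs with the others, was listed at 7.11 on all 3 arrays. Erbb3, a neuregulin receptor with little kinase activity, had 8.33 in IL-4Rα-/- colitis, 8.47 in WT colitis and 8.28 in WT normal. The receptors were at most 0.28 apart on the log2 scale between any pair of arrays, and none of the 3 was near background.

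**Figure D1:**
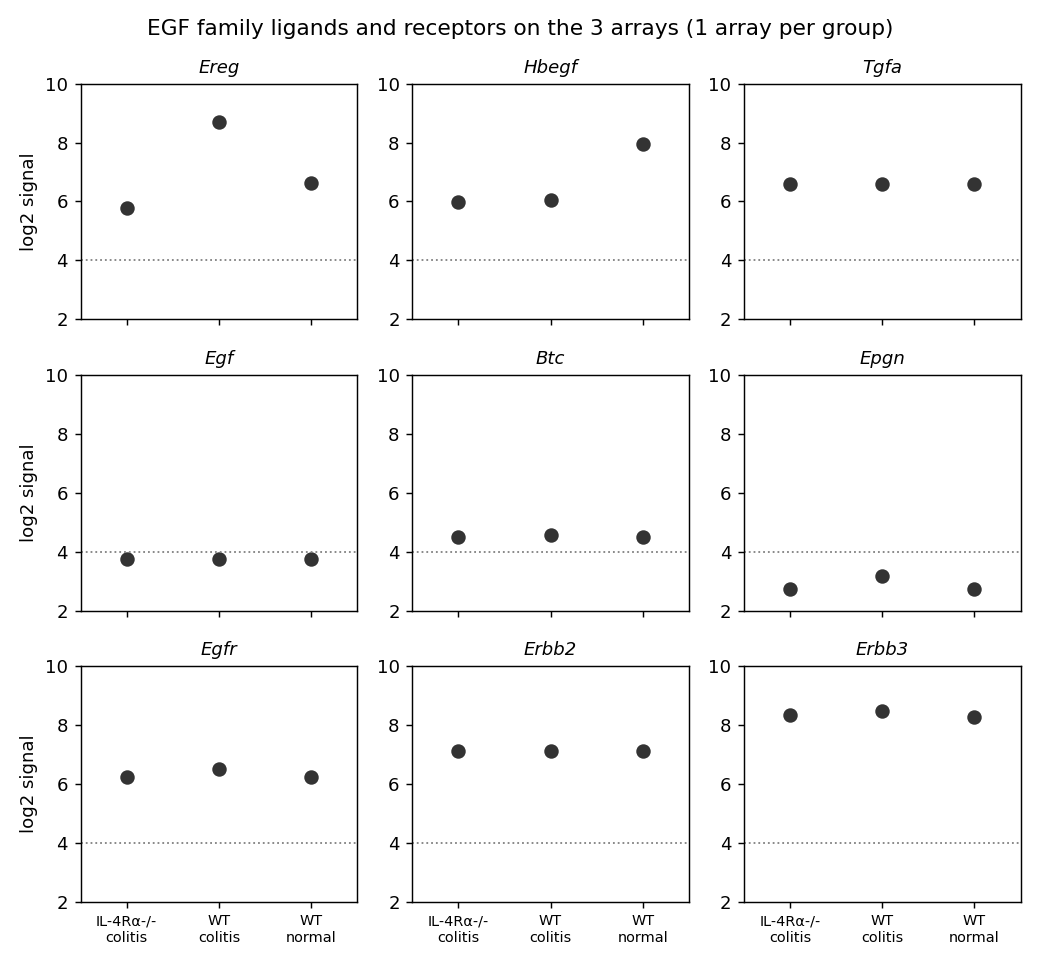
Log2 signal (y axis) of the 9 measured genes on the IL-4Rα-/- colitis, WT colitis and WT normal arrays (x axis), 1 point per array of pooled RNA, with a dotted line at a log2 signal of 4. Ereg is highest in WT colitis at 8.70, Hbegf is highest in WT normal at 7.94, and Tgfa, Egf and Erbb2 lie at the same value on all 3 arrays.

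Differences of at least 2-fold were limited to Ereg and Hbegf among the 9 genes. Between IL-4Rα-/- colitis and WT colitis, 1 of the 9 genes, Ereg, was at least 2-fold lower and 0 were higher, where 0.938% of all genes were at least 2-fold lower and 0.276% higher. Between WT colitis and WT normal, Ereg was at least 2-fold higher and Hbegf at least 2-fold lower, where 1.18% of all genes were higher and 0.466% lower. Between IL-4Rα-/- colitis and WT normal, Hbegf was at least 2-fold lower and 0 genes were higher, where 0.351% of all genes were lower and 0.191% higher. The median log2 difference of the 9 genes was -0.08 in IL-4Rα-/- colitis relative to WT colitis, 0.08 in WT colitis relative to WT normal and 0 in IL-4Rα-/- colitis relative to WT normal, and that of all genes was 0 in each. With quantile normalization the first of the member medians was 0.01 and the second 0, where those of all genes were 0.04 and -0.04. With centred arrays the member medians were -0.01 and 0.01, where those of all genes were 0.07 and -0.07. Since Ereg was among the values known when the set was drawn up, nothing is read from its counts. The comparisons of WT colitis with IL-4Rα-/- colitis and with WT normal share the WT colitis array, so opposite signs in them are not independent.

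In 6 of the 9 genes, namely Ereg, Hbegf, Btc, Epgn, Egfr and Erbb3, the IL-4Rα-/- colitis value lay below that of WT colitis, and in the other 3 it was equal. Over all genes, 37.3% had a lower value, 10.4% a higher and 52.3% an equal one. The median of the WT colitis array lay 0.07 above that of either other array, and small differences turned with the scaling. With quantile normalization 4 of the 9 genes were lower and 5 higher, and with arrays centred on their medians 5 were lower and 4 higher. Tgfa, Egf and Erbb2, equal as deposited, counted as higher under both scalings, with 0.07 each after centring. The median of all genes was then 0.04 with quantile normalization and 0.07 with centring. Centring adds 0.07 to each of these differences, and after it 5746 of all 19938 genes were lower and 13858 higher. With quantile normalization such counts over all genes are not given. Egfr, Btc and Epgn had identical values in IL-4Rα-/- colitis and WT normal, a pattern shared by 3980 genes on the array.

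The other receptor of the family and the neuregulins, ligands of ERBB3 and ERBB4, were dim. Erbb4 was listed at 2.98 and Nrg4 at 2.85 on all 3 arrays. Nrg2 had 3.82 in IL-4Rα-/- colitis, 3.97 in WT colitis and 3.82 in WT normal, and Nrg3 had 2.77 in IL-4Rα-/- colitis, 2.92 in WT colitis and 2.77 in WT normal. Nrg1 alone of these 5 genes reached a log2 signal of 4, with 4.17 in IL-4Rα-/- colitis, 4.96 in WT colitis and 4.07 in WT normal. Its difference was -0.79 between IL-4Rα-/- colitis and WT colitis and 0.89 between WT colitis and WT normal, within 2-fold in both cases.

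**Figure D2:**
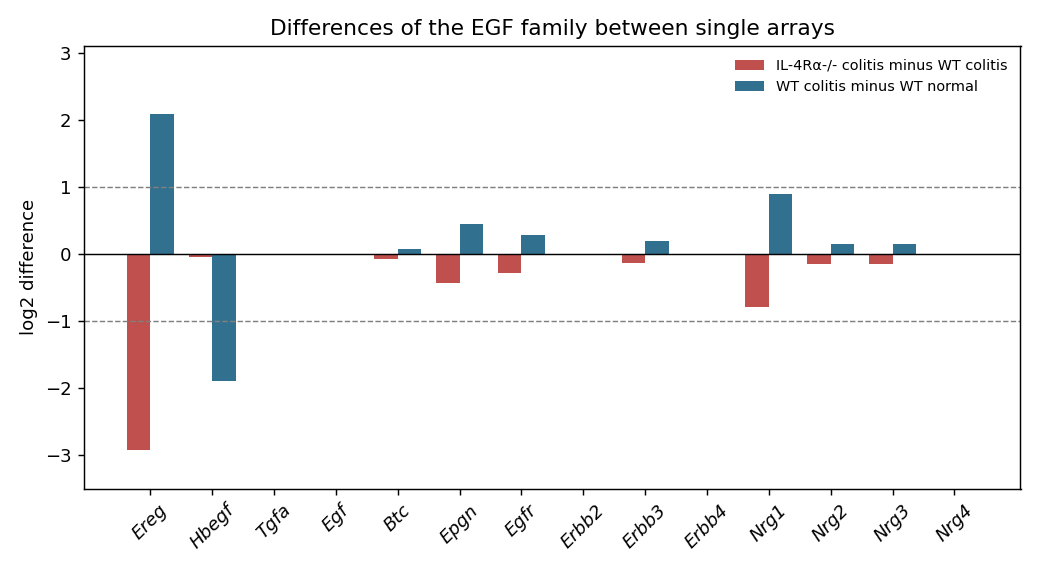
Log2 difference (y axis) of the 9 measured genes, Erbb4 and the neuregulins (x axis), for IL-4Rα-/- colitis minus WT colitis and for WT colitis minus WT normal, with dashed lines at 2-fold. Each bar is a difference between single arrays and has no error. Ereg stands at -2.92 and 2.08, Hbegf at -0.05 and -1.90, and genes without bars had equal values.

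Genes that control release of the ligands had a lower signal in IL-4Rα-/- colitis, relative to WT colitis, in 13 of 13 cases, though by small amounts, with differences from -1.03 to -0.05 and a median of -0.21. With quantile normalization or centred arrays it was 12 of 13. Over all genes, 37.3% were lower and 10.4% higher as deposited. With centred arrays 5746 of all 19938 genes were lower and 13858 higher. The 1 gene at least 2-fold lower, against 0.938% of all genes, was Timp3, an inhibitor of the sheddase ADAM17. It had 7.87 in IL-4Rα-/- colitis, 8.90 in WT colitis and 8.10 in WT normal. Its difference of -1.03 passed 2-fold by less than the 0.07 offset of the array medians. Adam17 itself had 6.17 in IL-4Rα-/- colitis, 6.30 in WT colitis and 6.17 in WT normal. Adam10, the other main sheddase of these ligands, had 7.90 in IL-4Rα-/- colitis, 8.03 in WT colitis and 7.60 in WT normal. Between WT colitis and WT normal, 9 of the 13 were higher, with none past 2-fold and a median of 0.31, where 35.8% of all genes were higher and 12% lower.

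Among 25 measured genes of the adaptors and the RAS-ERK and PI3K relay, out of 30 listed, 0 passed 2-fold in any of the 3 comparisons. Of all genes, 0.191% to 1.18% passed it, depending on comparison and direction. Their differences ranged from -0.54 to 0.04 between IL-4Rα-/- colitis and WT colitis and from -0.09 to 0.78 between WT colitis and WT normal. The adaptor gene Grb2 had 6.50 in IL-4Rα-/- colitis, 6.57 in WT colitis and 6.50 in WT normal.

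Among 25 negative regulators, 1 stood at least 2-fold below WT colitis in the IL-4Rα-/- array and 0 stood above it. Of all genes, 0.938% were at least 2-fold lower in that comparison and 0.276% higher. The 1 regulator was Dusp1, a phosphatase of MAP kinases, with 7.84 in IL-4Rα-/- colitis and 8.99 in both WT arrays. Socs3, a feedback inhibitor of cytokine receptors, was at least 2-fold higher in WT colitis relative to WT normal, as were 1.18% of all genes. It had 5.57 in IL-4Rα-/- colitis, 6.48 in WT colitis and 5.15 in WT normal. Compared with WT normal, 3 of the 25 were at least 2-fold lower in IL-4Rα-/- colitis, where 0.351% of all genes were lower. Besides Dusp1 these were Errfi1 and Spry4. Errfi1, which encodes the EGFR inhibitor MIG6, had 8.07 in IL-4Rα-/- colitis, 8.90 in WT colitis and 9.47 in WT normal. Spry4, a Sprouty inhibitor of RAS-ERK signalling, had 5.32 in IL-4Rα-/- colitis, 6.24 in WT colitis and 6.52 in WT normal. Both were lowest in IL-4Rα-/- colitis and highest in WT normal. Lrig1, which promotes breakdown of EGFR and marks crypt stem cells, had 7.18 in IL-4Rα-/- colitis, 7.11 in WT colitis and 7.33 in WT normal.

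Of 19 measured genes that RAS-ERK signalling induces, out of 20 listed, 3 were at least 2-fold lower and 1 was higher in WT colitis relative to WT normal. Of all genes, 0.466% were lower and 1.18% higher in that comparison. Egr1, an immediate early transcription factor, had a log2 signal of 6.26 in IL-4Rα-/- colitis, 7.21 in WT colitis and 9.50 in WT normal. Fos, another, had 5.84 in IL-4Rα-/- colitis, 6.09 in WT colitis and 7.89 in WT normal. Phlda1, which encodes a growth factor-induced PH domain protein, had 7.36 in IL-4Rα-/- colitis, 7.61 in WT colitis and 9.28 in WT normal. These 3 genes, like Hbegf, were higher in WT normal than on either colitis array. Ptgs2, which encodes cyclooxygenase 2, was the 1 gene at least 2-fold higher in WT colitis and also the 1 gene at least 2-fold lower in IL-4Rα-/- colitis, with 5.85 in IL-4Rα-/- colitis, 8.20 in WT colitis and 6.85 in WT normal. Its values had the order of those of Ereg. Of all genes, 0.938% were at least 2-fold lower in IL-4Rα-/- colitis relative to WT colitis. Between IL-4Rα-/- colitis and WT normal, 4 of the 19 were at least 2-fold lower and 0 higher, with Ptgs2 exactly at the 2-fold limit, where 0.351% of all genes were lower and 0.191% higher. The list's median difference was -0.04 between IL-4Rα-/- colitis and WT colitis, -0.13 between WT colitis and WT normal and -0.24 between IL-4Rα-/- colitis and WT normal.

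**Figure D3:**
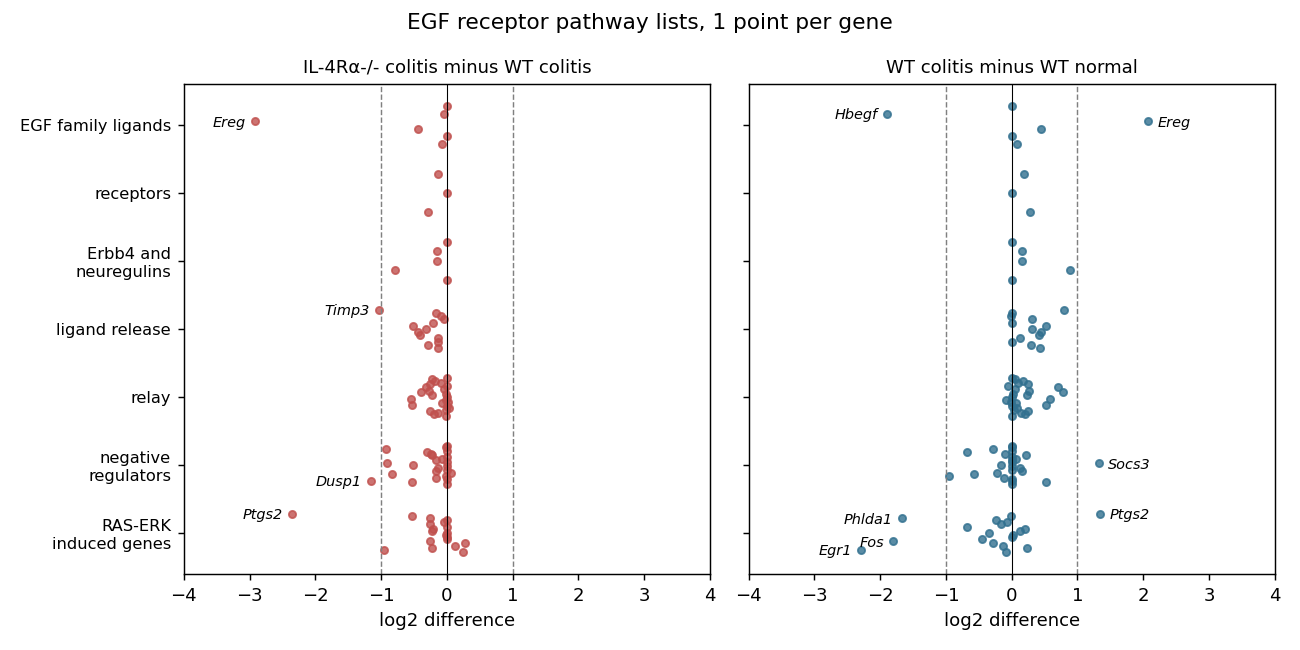
Log2 difference (x axis) of each measured gene, 1 point per gene, by list (y axis), with IL-4Rα-/- colitis minus WT colitis on the left and WT colitis minus WT normal on the right, with dashed lines at 2-fold and names for genes beyond them. Ereg and Ptgs2 lie beyond 2-fold in both panels on opposite sides, and Hbegf lies with Egr1, Fos and Phlda1 at the low end of the right panel.

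The genes most like Ereg were sought by the distance between the pairs of log2 differences (IL-4Rα-/- colitis against WT colitis, and WT colitis against WT normal) over 3 arrays, among 6051 genes outside the set with a highest log2 signal of at least 6. The nearest was Igkv19-93, an immunoglobulin light chain segment, at a distance of 0.295, with 7.08 in IL-4Rα-/- colitis, 10.26 in WT colitis and 8.04 in WT normal. Lgi2 followed at 0.595, then Fgf7 at 0.706, Spon2 at 0.781 and Bmp7 at 0.875. Fgf7, keratinocyte growth factor, acts on epithelial cells from the mesenchyme and had 4.18 in IL-4Rα-/- colitis, 6.41 in WT colitis and 4.18 in WT normal. Around Hbegf, a search chosen after its values had been seen, the nearest were Dnajb1, a heat shock cochaperone, at 0.112, Fos at 0.224, Phlda1 at 0.305, Car3 at 0.310 and 9030619P08Rik at 0.332. Between IL-4Rα-/- colitis and WT normal, Ereg differed by -0.84 and Igkv19-93 by -0.96. The other genes nearest to Ereg differed less there, with 0 for Lgi2 and Fgf7, -0.20 for Spon2 and -0.14 for Bmp7. With 3 arrays unrelated genes can share a profile, and these distances rank likeness only.

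Along chromosome 5, high signal in WT colitis was not shared evenly by the neighbours of Ereg. Epgn and Btc, on its sides among the measured genes, differed by -0.44 (Epgn) and -0.08 (Btc) on the log2 scale in IL-4Rα-/- colitis relative to WT colitis, against -2.92 for Ereg. Beyond Epgn lie Mthfd2l, an enzyme of folate metabolism, and the neutrophil chemokines Cxcl2 and Cxcl1. Mthfd2l had 4.62 in IL-4Rα-/- colitis, 4.84 in WT colitis and 4.61 in WT normal. Cxcl2 had 2.30 in IL-4Rα-/- colitis, 4.05 in WT colitis and 2.06 in WT normal, and Cxcl1 had 4.56 in IL-4Rα-/- colitis, 5.38 in WT colitis and 4.56 in WT normal. Cxcl2 was thus near background outside WT colitis and barely above a log2 signal of 4 there. Beyond Btc, Parm1 had 9.43 in IL-4Rα-/- colitis, 9.53 in WT colitis and 9.40 in WT normal, and Rchy1 and Odaph were each listed at equal values on all 3 arrays. The number of neighbours on each side was chosen after the data had been seen.

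**Figure D4:**
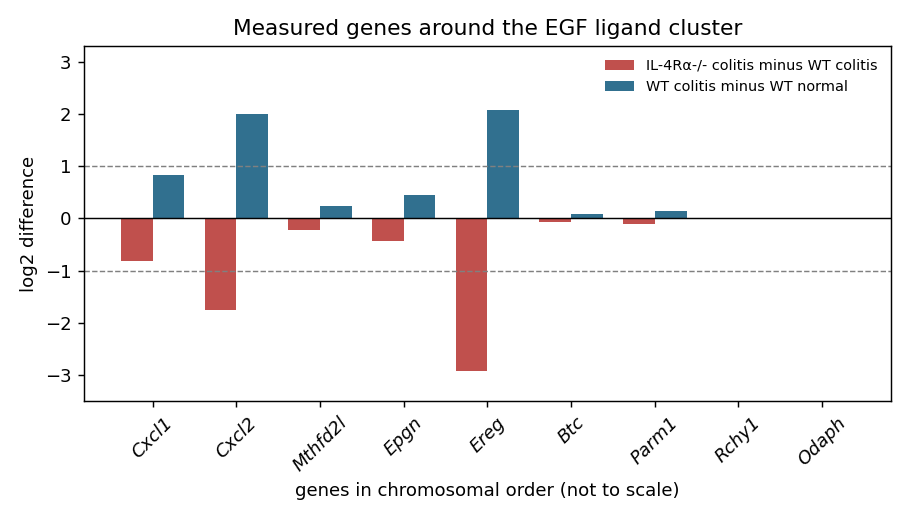
Log2 difference (y axis) of the measured genes around the ligand cluster in the order of the chromosome (x axis, not to scale), for IL-4Rα-/- colitis minus WT colitis and for WT colitis minus WT normal, with dashed lines at 2-fold. Ereg, at -2.92 and 2.08, and Cxcl2, at -1.75 and 1.99, lie beyond 2-fold, and Btc, between Ereg and Parm1, lies near 0. The signal of Cxcl2 was near background outside WT colitis.

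Markers of several cell types were, like Ereg, higher in WT colitis than on the other arrays. Over all genes, 0.938% were at least 2-fold lower in IL-4Rα-/- colitis relative to WT colitis and 0.276% higher. Of 10 mast cell genes, 4 were at least 2-fold lower in that comparison and 0 higher. The mean log2 signal of the 10 was 4.24 in IL-4Rα-/- colitis, 5.20 in WT colitis and 3.92 in WT normal. Relative to WT normal, 2 of the 10, Mcpt1 (log2 difference of 1.21) and Mcpt2 (1.12), were at least 2-fold higher in IL-4Rα-/- colitis, whereas Ereg was lower there (-0.84). Of all genes, 0.191% were at least 2-fold higher in that comparison. Of 10 fibroblast genes, 3 were at least 2-fold lower in IL-4Rα-/- colitis relative to WT colitis and 0 higher. Their means were 6.59 in IL-4Rα-/- colitis, 7.24 in WT colitis and 6.65 in WT normal. The mast cell gene Fcer1a (-1.04) and the fibroblast gene Pdgfra (-1.03) passed 2-fold by less than the 0.07 offset of the array medians. The mast cell and fibroblast counts thus depend on the scaling. Of 10 genes of squamous epithelium, a tissue of the anal margin that also makes EGF ligands, 2 were lower and 0 higher, with means of 3.59 in IL-4Rα-/- colitis, 4.09 in WT colitis and 3.50 in WT normal. Its defining gene Krt5 had 3.14 in IL-4Rα-/- colitis, 5.17 in WT colitis and 3.09 in WT normal, and its values outside WT colitis were near background. Sprr1a, a cornified envelope gene, ran another way and was highest in IL-4Rα-/- colitis, with 8.45 there, 8.22 in WT colitis and 7.86 in WT normal, and 7 of the 10 stayed under 4 on every array.
Endothelial genes had means of 5.43 in IL-4Rα-/- colitis, 6.03 in WT colitis and 5.49 in WT normal. Of these 10 genes, 1 was at least 2-fold lower in IL-4Rα-/- colitis relative to WT colitis, against 0.938% of all genes. For macrophages and monocytes the means were 5.34 in IL-4Rα-/- colitis, 5.61 in WT colitis and 5.26 in WT normal. For neutrophils the means were 3.57 in IL-4Rα-/- colitis, 4.04 in WT colitis and 3.51 in WT normal. These neutrophil means were raised by Ly6g, with 10.60 in IL-4Rα-/- colitis, 10.81 in WT colitis and 10.24 in WT normal. In each of these lists 1 of 10 was at least 2-fold lower in IL-4Rα-/- colitis, against the same share of all genes. Of the 10 neutrophil genes, 7 stayed under a log2 signal of 4 on every array. Mpo, a gene of the neutrophil list, was listed at 2.32, near background, on all 3 arrays. By staining for the MPO protein, the paper found fewer neutrophils in the mucosa of DSS-treated knockouts than of DSS-treated WT mice. The flat Mpo signal therefore does not show equal neutrophil numbers. S100a8 had 2.58 in IL-4Rα-/- colitis, 4.27 in WT colitis and 2.62 in WT normal. In 10 epithelial genes, 9 measured genes of T cells and innate lymphoid cells and 10 smooth muscle genes, 0 passed 2-fold in either direction between IL-4Rα-/- colitis and WT colitis. The part of these cell types, or of the severity of colitis, in the Ereg values was not tested.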

How the data were processed

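Total RNA of distal colon was pooled by group and hybridised to 3 arrays, 1 per group. The methods name the GeneChip Mouse Gene 1.0 ST Array, whereas the labels describe Cy3 labelling with an Agilent kit. The authors deposited 28944 probe sets as log2 signals, given to 2 decimals. The methods name GeneChip Analysis Suite Software and Transcriptome Analysis Console and describe median-centred log2 levels for a heat map, but the deposited array medians are not at 0. Neither source states how probes were summarised or normalized. Array medians were 4.11 in IL-4Rα-/- colitis, 4.18 in WT colitis and 4.11 in WT normal. Of the probe sets, 21789 had 1 gene symbol in the platform annotation, 1621 had several and 5534 had none here. A gene with several probe sets was represented by its brightest on average, and 1 probe set listing a member beside another symbol was left out.

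Log2 differences were taken between arrays as deposited, and genes at least 2-fold apart were counted. No test was possible with 1 array per group. Members and lists were chosen with earlier results of these data known. The text names all members, Erbb4 and the neuregulins, up to 6 genes of each pathway list past 2-fold between WT colitis and WT normal or between IL-4Rα-/- colitis and WT colitis, up to 3 genes per marker list, the 5 genes nearest in profile, and chromosomal neighbours. Adam17, Adam10, Grb2, Errfi1, Spry4, Lrig1, Cd14 and Ly6g were added after their values had been seen. Alternatives were quantile normalization, median centring, an offset of 32, a filter at a log2 signal of 4, the mean of probe sets, and thresholds of 4-fold and 1.5-fold. In a simulated comparison of IL-4Rα-/- colitis with WT colitis over 19938 genes, all 50 genes changed by 1.5 and all 50 changed by 3 in each direction on the log2 scale were counted, and 0 of 19738 unchanged ones. The simulated noise was normal and small beside the 2-fold limit, so this outcome was fixed in advance. It checks the counting only and says nothing about false calls on the real arrays. Python 3.11.15, numpy 2.4.6, pandas 2.3.3 and matplotlib 3.10.9 were used.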

Additional observations from a re-analysis of the deposited data

How the results depend on the processing

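Quantile normalization, median centring of the arrays, an offset of 32, the filter on dim genes and the mean of probe sets left the counts of members past 2-fold at 1 between IL-4Rα-/- colitis and WT colitis, 2 between WT colitis and WT normal and 1 between IL-4Rα-/- colitis and WT normal. Each measured member had 1 probe set, so the mean could not change its value. The filter removed only Egf and Epgn, which never passed 2-fold. Single-gene values under the filter and the mean therefore equal the deposited ones by construction, and they are among the 122 unshifted values below. The median difference of the members became 0.01 with quantile normalization and -0.01 with centring between IL-4Rα-/- colitis and WT colitis. That of all genes became 0.04 and 0.07. Between WT colitis and WT normal the member median became 0 and 0.01, and that of all genes -0.04 and -0.07. The sign of the member median thus depends on the scaling. Under each of these scalings it lay below the all-gene median in the first comparison and above it in the second. At 4-fold the count was 1 between WT colitis and WT normal, without Hbegf, and 0 between IL-4Rα-/- colitis and WT normal. At 1.5-fold it was 2 between IL-4Rα-/- colitis and WT normal, with Ereg added to Hbegf. Of 129 values of single genes under these settings, 122 shifted by no more than the spread of all changing probe sets and 7 by more, each of the 7 with the offset, which by construction shrinks differences of dim signals. With it, Ereg had -2.36 between IL-4Rα-/- colitis and WT colitis, 1.78 between WT colitis and WT normal and -0.58 between IL-4Rα-/- colitis and WT normal, Hbegf had -1.505 between WT colitis and WT normal and -1.54 between IL-4Rα-/- colitis and WT normal, and Epgn had -0.09 for IL-4Rα-/- colitis minus WT colitis and 0.09 for WT colitis minus WT normal. Over all genes the offset left 81 at least 2-fold higher and 58 lower in WT colitis relative to WT normal, against 235 and 93 as deposited. A single array per group, the equal values on many probe sets and the dim signals of Egf, Epgn, Erbb4, Nrg2, Nrg3 and Nrg4 limit what these data show. No array could be left out, and no paired analysis was possible because each group has 1 array.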
